A study of Mus musculus with 16 samples.

Results

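The 37 genes described here encode lysosomal hydrolases, the cofactors that help them, lysosomal membrane proteins and 2 genes that act on the lysosome as a whole, Tfeb and Grn. They were taken by gene symbol from a list that leaves out cathepsins and subunits of the proton pump. All 37 were found among the 24411 gene symbols of the files, and all 37 passed the filter on low values (a mean TPM above 1 in at least 1 group), as did 16091 genes in all. The list holds 12 genes for glycosidases or the glycosylasparaginase Aga, 4 sulfatases, 4 lipid hydrolases, 4 activators or sterol carriers, 2 genes for a peptidase and a thioesterase (Tpp1 and Ppt1), 9 membrane proteins, and Tfeb with Grn.

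RNA was sequenced from the spinal cords of 16 female C57BL/6J mice. In the SCI + Vehicle group (n = 7) and the SCI + Atorvastatin group (n = 7), the cord was compressed laterally to 0.25 mm at T8 to T9 at 12 weeks of age. From week 2 after injury the SCI + Atorvastatin mice were given 10 mg/kg atorvastatin each day for 4 weeks, in dimethyl sulfoxide, PEG 400, Tween 80 and saline, and the SCI + Vehicle mice were given that mixture without the drug. The Uninjured Control group (n = 2) had neither injury nor injections. The labels give 12 weeks as the age of all mice, which for the SCI mice is the age at injury, and the labels and the study's methods differ on the age of the controls, so a difference of injury and one of age at tissue collection cannot be told apart. A 5 mm piece of cord around T9 to T10 was taken from each mouse after perfusion with saline, at 6 weeks post-injury by the labels, so each library holds the RNA of all cell types in that piece. Atorvastatin inhibits the enzyme that limits cholesterol synthesis.

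Lysosomes take up material from endocytosis, phagocytosis and autophagy and break it down in an acidic lumen. Each hydrolase removes 1 kind of bond, so glycolipids, glycoproteins and glycosaminoglycans are taken apart in sequence, and loss of a single enzyme leads to a storage disease that often affects the nervous system. Microglia and macrophages, which clear myelin debris after spinal cord injury, are rich in lysosomes. The transcription factor TFEB switches on many lysosomal genes through CLEAR elements, which contain the letters CACGTG.

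Total counts on genes were 14823292 to 25579826 per mouse, and a count of 0 allows up to 0.117 to 0.202 CPM (counting error only). The Uninjured Control libraries stood apart from the rest. Among 11203 genes that averaged over 200 counts in injured cord, 4.83% and 6.35% were not counted at all in Uninjured Control replicates 1 and 2, against at most 0.0803% in any SCI mouse. The summed level of 8 liver markers was 4283 and 721 CPM in Uninjured Control replicates 1 and 2 and at most 6.56 CPM in any SCI mouse. Both comparisons with uninjured cord share these 2 mice, so their values below are given side by side and are not independent of each other.

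Levels between genes were compared in TPM, which is scaled for gene length. Psap, the precursor of the saposins that present sphingolipids to their hydrolases, was the most abundant member. Its TPM was 660 and 780 in the Uninjured Control mice, 1072 to 1345 (median 1267) in the SCI + Vehicle mice and 1227 to 1406 (median 1302) in the SCI + Atorvastatin mice. Every SCI mouse had a higher Psap level than both controls. Lamp1, a heavily glycosylated protein that lines the lysosomal membrane, came next at 462 and 495 TPM in the controls, 575 to 758 (median 680) with vehicle and 704 to 786 (median 735) with atorvastatin. Cd63, a tetraspanin of late endosomes, was at 272 and 271 TPM in the controls, 414 to 699 (median 620) with vehicle and 627 to 760 (median 688) with atorvastatin. The SCI and control ranges of Lamp1 and of Cd63 did not overlap either. The lowest mean in the SCI + Vehicle group was that of Sgsh, at a median of 8.96 TPM. The members together took 0.320% and 0.363% of all counts in the controls, 0.434 to 0.529% with vehicle and 0.491 to 0.605% with atorvastatin, and Psap alone made up 22.2 to 25.6% of the members' counts in any mouse.

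**Figure D1:**
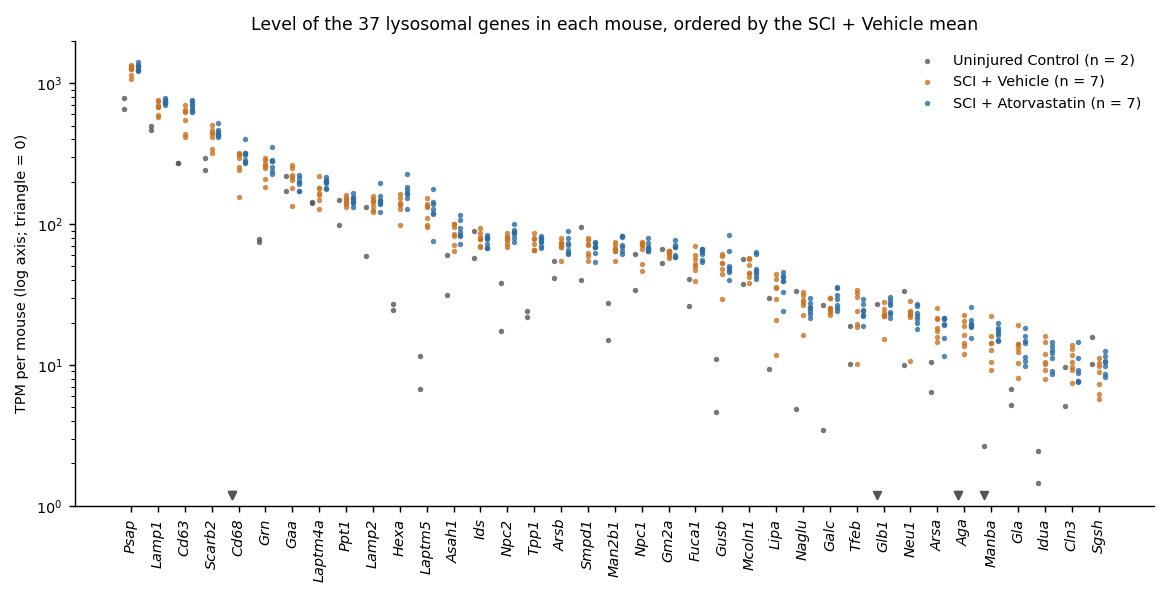
TPM (log axis) of each of the 37 genes in each mouse, with genes on the x axis ordered by their SCI + Vehicle mean, 1 point per mouse and triangles for a TPM of 0. The points run from Psap, at 1072 TPM or more in every SCI mouse, to Sgsh near 10 TPM, and the triangles are all from Uninjured Control mice (Cd68, Glb1, Aga and Manba).

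Which lysosomal genes differed between chronically injured and uninjured cord was asked first. With vehicle, 14 of the 37 genes were upregulated against Uninjured Control and 0 were downregulated, where a DEG has an edgeR quasi-likelihood adjusted p below 0.05 and a change above 25%. Of all genes tested, 19.8% were upregulated and 9.55% downregulated by the same rule. With atorvastatin, 18 of 37 were upregulated and 0 downregulated, against 24.9% and 14% of all genes. The median over the members was a log2 fold change of 0.38 with vehicle and 0.47 with atorvastatin, beside 0.17 and 0.21 over all genes tested. The 14 genes called with vehicle (Aga, Asah1, Cd63, Cd68, Gla, Grn, Gusb, Hexa, Idua, Laptm5, Man2b1, Npc2, Psap and Tpp1) were all called with atorvastatin, where Fuca1, Lamp1, Npc1 and Scarb2 were called too. The other 19 genes were called in neither comparison. Aga and Cd68 had a TPM of 0 in both controls and passed the filter only through the SCI groups, where they were high. With a mean TPM above 1 required in every group, 35 members were tested, of which 12 and 15 were called. Of all genes tested in those fits, 19.1% and 29.5% were called in either direction. A limma voom fit that gives each group its own quality weight called 0 of 37 genes in either comparison, and 0.885% and 1.19% of all genes. It had 11 and 10 members at an unadjusted p below 0.05, and the share of all genes at that limit was not counted. In edgeR 17 and 20 members were at that limit, beside 6602 and 7689 of all 16091 genes. Its fold changes with vehicle were close to those of edgeR for Grn (1.45, SE 0.38), Hexa (2.36, SE 0.70) and Tpp1 (1.53, SE 0.46), with larger SEs. They were further from edgeR for Glb1 (4.79 against 0.38), Manba (4.69 against 1.71), Cd68 (8.44 against 6.03) and Aga (6.14 against 4.63). The voom median over the members with vehicle was 0.60, beside 0.41 over all genes. Its smallest adjusted p of the members was 0.144 (Grn) with vehicle and 0.114 (Tpp1) with atorvastatin. In this and the following paragraphs, CPM are the counts scaled to library size after TMM normalization, log2 fold changes are from edgeR with their standard error (SE), and p-values measure the spread between mice.

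**Figure D2:**
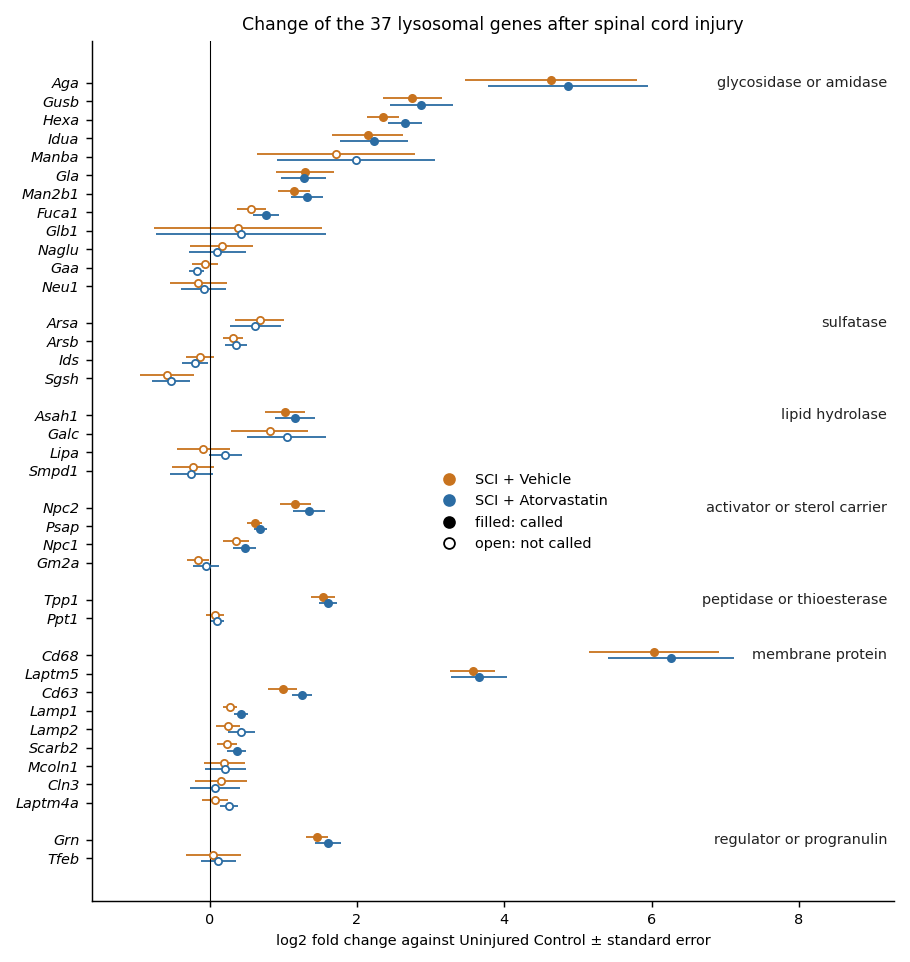
log2 fold change against Uninjured Control (x axis, ± SE from edgeR) of each gene in SCI + Vehicle (orange) and SCI + Atorvastatin (blue), grouped by role, with filled points for DEGs. The 14 and 18 filled points all lie to the right of 0, the sulfatases are open in this edgeR fit, and Cd68, Aga, Manba and Glb1 have the longest bars.

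Among the 12 enzymes that cut sugar chains of glycolipids and glycoproteins, glycosidases and the glycosylasparaginase Aga, 6 were upregulated with vehicle and 7 with atorvastatin. Hexa encodes the alpha subunit of beta-hexosaminidase A, which degrades GM2 ganglioside. Its level was 22.2 and 18.3 CPM in the controls, 74.8 to 127 CPM (median 106) with vehicle and 97.5 to 172 CPM (median 122) with atorvastatin. No SCI mouse came near the controls. Hexa changed on the log2 scale by 2.36 (SE 0.22, edgeR adjusted p = 7.4e-05) with vehicle and 2.65 (SE 0.23, adjusted p = 3.48e-05) with atorvastatin. Gusb, the beta-glucuronidase of glycosaminoglycan breakdown, changed by 2.75 (SE 0.40) and 2.87 (SE 0.42) on the log2 scale. Its controls were apart, at 11.1 CPM in replicate 1 and 4.04 CPM in replicate 2. Without Uninjured Control replicate 1, the higher control, the Gusb values rose to 3.65 and 3.77. Idua, the iduronidase of heparan and dermatan sulfate breakdown, changed by 2.14 (SE 0.48) and 2.22 (SE 0.46). Without Uninjured Control replicate 1 the Idua values were 3.30 and 3.38, and without replicate 2 they were 1.51 and 1.58. Gla, the alpha-galactosidase lacking in Fabry disease, changed by 1.29 (SE 0.40, edgeR adjusted p = 0.0324) and 1.27 (SE 0.31, adjusted p = 0.00847), and its call with vehicle was lost without SCI + Vehicle replicate 1, 2, 4 or 6 (adjusted p = 0.0533, 0.0524, 0.0564 and 0.0644). Man2b1, a lysosomal mannosidase, changed by 1.14 (SE 0.22) and 1.32 (SE 0.22). Fuca1, the fucosidase, was called with atorvastatin at 0.76 (SE 0.18, edgeR adjusted p = 0.00745), while with vehicle it stood at 0.56 (SE 0.20, adjusted p = 0.0548) and was called by DESeq2 (adjusted p = 0.0355).

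Aga, which cleaves the bond between asparagine and the sugar chain, was barely counted in uninjured cord, with 14 counts (0.704 CPM) in Uninjured Control replicate 1 and 0 counts in replicate 2. It was at 6.44 to 13.9 CPM (median 8.63) with vehicle and 7.65 to 13.5 CPM (median 10.2) with atorvastatin. All SCI mice were above both controls, at a log2 fold change of 4.63 (SE 1.17, edgeR adjusted p = 0.0135) and 4.87 (SE 1.08, adjusted p = 0.00531). Without replicate 2, the mouse at 0, the values were 3.63 and 3.86.

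The remaining 5 glycosidases were not called in either comparison, and for most of them the 2 control mice disagreed. Glb1, the beta-galactosidase of GM1 ganglioside and keratan sulfate, had 619 counts (31.1 CPM) in Uninjured Control replicate 1 and 0 in replicate 2. The SCI mice lay between these, at 14.2 to 24.6 CPM (median 20.3) with vehicle and 16.5 to 23.7 CPM (median 20.0) with atorvastatin, which gave log2 fold changes of 0.38 (SE 1.14) and 0.42 (SE 1.16). Manba, a beta-mannosidase, had 275 counts (13.8 CPM) and 1 count (0.0454 CPM) in the controls, 19.1 to 30.4 CPM (median 22.7) with vehicle and 21.8 to 34.7 CPM (median 26.8) with atorvastatin. Every SCI mouse was above both controls in Manba, but the control spread left it at 1.71 (SE 1.07, edgeR adjusted p = 0.256) and 1.99 (SE 1.08, adjusted p = 0.173). It was called by limma on log2(TPM + 1) at 2.94 (adjusted p = 0.00183) and 3.22 (adjusted p = 0.000273), by edgeR without control replicate 1 in both comparisons, where the other control holds 1 count, and without replicate 2 at 0.98 (adjusted p = 0.00433) with atorvastatin. Naglu, a glucosaminidase of heparan sulfate breakdown, was at 9.56 and 38.3 CPM in the controls, 17.4 to 34.1 CPM (median 28.1) with vehicle and 22.6 to 27.4 CPM (median 26.04) with atorvastatin. The 7 SCI + Atorvastatin mice all fell between the controls, with a log2 fold change of 0.10 (SE 0.38). Depending on the control left out, edgeR called Naglu down or up with atorvastatin (-0.58 without replicate 1, 1.42 without replicate 2). Neu1, the sialidase, stood at -0.16 (SE 0.39) and -0.09 (SE 0.31), with 0.90 and -0.67 called with atorvastatin when replicate 1 or 2 was left out. Gaa, the acid glucosidase that degrades glycogen, stood at -0.07 (SE 0.18) and -0.18 (SE 0.10).

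None of the 4 sulfatases was called in the pairwise edgeR fits of all mice. Arsa, which removes sulfate from the myelin lipid sulfatide, stood at 0.68 (SE 0.33) and 0.62 (SE 0.35), and Arsb, the sulfatase of dermatan sulfate, at 0.31 (SE 0.14) and 0.36 (SE 0.15), with edgeR adjusted p values of 0.109 and 0.0788. By limma on log2(TPM + 1) both were called in both comparisons, Arsa at 1.10 and 1.05 (adjusted p = 0.0155 and 0.0157) and Arsb at 0.54 and 0.57 (adjusted p = 0.0385 and 0.0231). In edgeR, Arsb was called with atorvastatin when all 3 groups shared 1 fit (0.35, adjusted p = 0.0488), and Arsa was called without control replicate 2 (1.49 and 1.43). Ids, the iduronate sulfatase, stood at -0.13 (SE 0.19) and -0.20 (SE 0.18), and was called at -0.50 and -0.59 without control replicate 2. Sgsh, the sulfamidase of heparan sulfate, had the lowest fold change of the 37 genes, at -0.59 (SE 0.37, edgeR adjusted p = 0.261) and -0.53 (SE 0.26, adjusted p = 0.139). It was the 1 gene whose highest mouse in each SCI group (14.9 and 12.7 CPM) lay below both controls (15.9 and 16.2 CPM), and DESeq2 called it with atorvastatin (-0.56, adjusted p = 0.0297). In TPM the Sgsh groups overlapped, with controls at 15.8 and 10.2 and SCI mice up to 11.1 and 12.5.

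Of the 4 lipid hydrolases, 1 was upregulated in each comparison. This was Asah1, the acid ceramidase, at 1.02 (SE 0.27, edgeR adjusted p = 0.0176) and 1.16 (SE 0.27, adjusted p = 0.00729). Without Uninjured Control replicate 1 the values were 1.66 and 1.80, and without replicate 2 the vehicle value was 0.57 (adjusted p = 0.0527). Galc, which degrades the myelin lipid galactosylceramide, was at 42.9 and 5.95 CPM in the controls, 37.2 to 50.1 CPM (median 40.8) with vehicle and 39.8 to 58.9 CPM (median 50.6) with atorvastatin. Its SCI levels overlapped with Uninjured Control replicate 1 and lay far above replicate 2, and the log2 fold changes of 0.81 (SE 0.52) and 1.04 (SE 0.54) were not called. With control replicate 1 left out Galc was called, at 2.85 (edgeR adjusted p = 4.95e-06) and 3.08 (adjusted p = 3.03e-07). Lipa, the acid lipase that frees cholesterol from its esters, had controls of 44.8 and 37.5 CPM beside 16.8 to 55.3 CPM (median 40.6) with vehicle and 30.8 to 58.4 CPM (median 50.2) with atorvastatin. The ranges of Lipa overlapped, with log2 fold changes of -0.09 (SE 0.36) and 0.21 (SE 0.22), though limma on log2(TPM + 1) called Lipa with atorvastatin (1.10, adjusted p = 0.0383). Smpd1, the acid sphingomyelinase, stood at -0.24 (SE 0.29) and -0.25 (SE 0.29), with 98.9 and 37.1 CPM in the controls.

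Among the activators and sterol carriers, Psap and Npc2 were upregulated in both comparisons. Psap was at 819 and 806 CPM in the controls, 1148 to 1338 CPM (median 1252) with vehicle and 1224 to 1470 CPM (median 1271) with atorvastatin. On the log2 scale Psap changed by only 0.61 (SE 0.10, edgeR adjusted p = 0.0012) and 0.69 (SE 0.09, adjusted p = 0.000204), on close replicates. Npc2, which carries cholesterol within the lumen, changed by 1.16 (SE 0.21) and 1.35 (SE 0.21). Its membrane partner Npc1 stood at 0.35 (SE 0.18, edgeR adjusted p = 0.166) with vehicle and was called at 0.47 (SE 0.16, adjusted p = 0.0356) with atorvastatin. That Npc1 call was lost without any 1 of SCI + Atorvastatin replicates 1, 3, 5, 6 and 7 (adjusted p = 0.0598, 0.0593, 0.0581, 0.0574 and 0.0533) and without Uninjured Control replicate 1 (adjusted p = 0.273). Gm2a, the activator that lifts GM2 ganglioside to hexosaminidase A, was at 133 and 90.05 CPM in the controls, 91.9 to 111 CPM (median 99.7) with vehicle and 87.2 to 123 CPM (median 114) with atorvastatin. Gm2a overlapped between all 3 groups, with log2 fold changes of -0.16 (SE 0.14) and -0.05 (SE 0.17), whereas the enzyme subunit it serves, Hexa, was over 4 times its control level by the fold changes above.

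Tpp1, a serine peptidase whose loss causes a childhood neuronal ceroid lipofuscinosis, had the smallest p of the members in SCI + Atorvastatin vs. Uninjured Control. Both controls were at 35.6 CPM, while the SCI + Vehicle mice were at 87.4 to 120 CPM (median 103) and the SCI + Atorvastatin mice at 94.1 to 118 CPM (median 109). The groups were far apart for the spread within them, with log2 fold changes of 1.54 (SE 0.16, edgeR adjusted p = 0.000126) and 1.60 (SE 0.12, adjusted p = 1.52e-05). Ppt1, the palmitoyl-protein thioesterase lacking in another form of that disease, stood at 0.07 (SE 0.12) and 0.10 (SE 0.09).

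Of the 9 membrane proteins, 3 were upregulated with vehicle and 5 with atorvastatin. Laptm5, a transmembrane protein of blood cell lysosomes, had the smallest p of the members with vehicle. It was at 6.24 and 11.6 CPM in the controls, 85.9 to 141 CPM (median 111) with vehicle and 65.4 to 158 CPM (median 108) with atorvastatin. Every SCI mouse was above both controls, at log2 fold changes of 3.57 (SE 0.31, edgeR adjusted p = 5.58e-05) and 3.66 (SE 0.38, adjusted p = 8.28e-05). Cd68, a macrophage member of the LAMP family, had 0 counts in Uninjured Control replicate 1 and 72 counts (3.27 CPM) in replicate 2. It was at 69.9 to 136 CPM (median 119) with vehicle and 103 to 169 CPM (median 125) with atorvastatin, so the groups were widely separated. The log2 fold changes of 6.03 (SE 0.89, edgeR adjusted p = 0.000787) and 6.26 (SE 0.85, adjusted p = 0.000336) became 5.06 and 5.30 without replicate 1, the mouse at 0.

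Cd63 was at 89.7 and 76.4 CPM in the controls, 123 to 201 CPM (median 179) with vehicle and 161 to 225 CPM (median 206) with atorvastatin, with log2 fold changes of 0.99 (SE 0.20, edgeR adjusted p = 0.00394) and 1.25 (SE 0.14, adjusted p = 0.00011). Lamp1 was at 492 and 447 CPM in the controls, 523 to 624 CPM (median 581) with vehicle and 581 to 693 CPM (median 594) with atorvastatin. Both SCI groups lay above both controls in Lamp1 by a small margin, with log2 fold changes of 0.27 (SE 0.10, edgeR adjusted p = 0.0625) and 0.42 (SE 0.10, adjusted p = 0.00641). Scarb2, the receptor that carries glucocerebrosidase to the lysosome, stood at 0.23 (SE 0.14) with vehicle and was called at 0.36 (SE 0.12, edgeR adjusted p = 0.0408) with atorvastatin. The Scarb2 call was lost without any 1 of SCI + Atorvastatin replicates 2, 3, 4, 5 and 7 or Uninjured Control replicate 2, and with DESeq2 size factors (adjusted p = 0.0573) or a filter of mean TPM above 1 in every group (adjusted p = 0.0546). Lamp2, whose splice forms serve chaperone-mediated autophagy and lysosome fusion, stood at 0.25 (SE 0.16) and 0.43 (SE 0.18). Mcoln1, the lysosomal calcium channel TRPML1, stood at 0.20 (SE 0.28) and 0.21 (SE 0.27), and was called without control replicate 1 at 0.93 (edgeR adjusted p = 0.00668) and 0.94 (adjusted p = 0.00155). Laptm4a, a relative of Laptm5, stood at 0.07 (SE 0.17) and 0.27 (SE 0.12). By limma on log2(TPM + 1), Lamp1 (0.49, adjusted p = 0.0161) and Scarb2 (0.62, adjusted p = 0.0267) were called with vehicle too. That limma fit also called Lamp2 (0.74, adjusted p = 0.0465) and Laptm4a (0.46, adjusted p = 0.00401) with atorvastatin. With control replicate 1 left out Lamp2 was called at 0.56 and 0.74, and Laptm4a at 0.41 with atorvastatin. Cln3, the membrane protein lacking in juvenile ceroid lipofuscinosis, had controls of 10.0 and 14.3 CPM beside 8.73 to 16.1 CPM (median 14.5) with vehicle and 8.97 to 17.9 CPM (median 12.1) with atorvastatin. Its 3 groups overlapped, with log2 fold changes of 0.15 (SE 0.35) and 0.07 (SE 0.34).

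Grn encodes progranulin, a secreted protein whose cleaved granulins work in the lysosome and whose loss leads to microglial and neuronal disease. It was at 77.1 and 79.1 CPM in the controls, 174 to 257 CPM (median 218) with vehicle and 189 to 314 CPM (median 227) with atorvastatin. No SCI mouse overlapped the controls, and the log2 fold changes were 1.46 (SE 0.15, edgeR adjusted p = 0.000126) and 1.60 (SE 0.18, adjusted p = 0.000101). Tfeb had the largest p of the members with vehicle. It was at 17.3 and 28.4 CPM in the controls, 11.7 to 31.3 CPM (median 26.4) with vehicle and 21.1 to 30.7 CPM (median 24.0) with atorvastatin. The Tfeb groups overlapped in CPM, with log2 fold changes of 0.05 (95% interval -0.78 to 0.87) and 0.12 (95% interval -0.41 to 0.64). In TPM the order of the controls was the reverse (19.1 and 10.1), and limma on log2(TPM + 1) called Tfeb with atorvastatin at 0.74 (adjusted p = 0.0372).

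**Figure D3:**
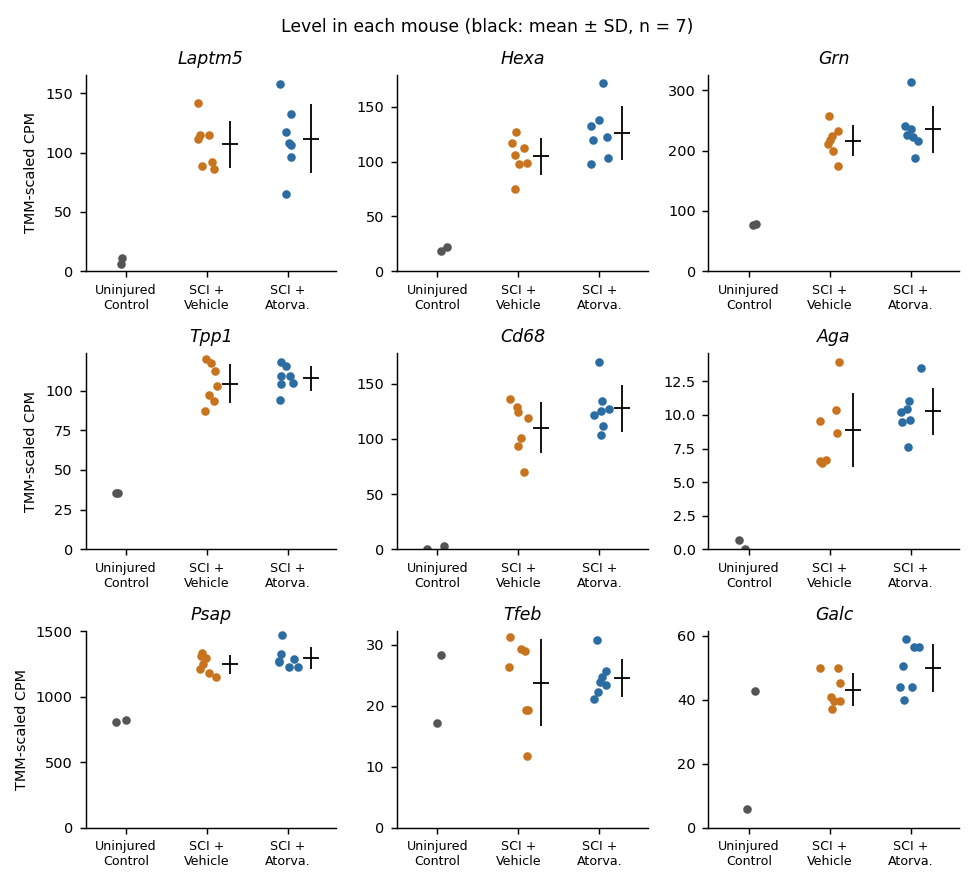
TMM-scaled CPM (y axis, from 0) of 9 of the genes in every mouse, by group on the x axis, with the mean ± SD beside each SCI group (n = 7) and no mean for the 2 controls. In Laptm5, Hexa, Grn, Tpp1, Cd68, Aga and Psap every SCI point is above both controls, Tfeb overlaps, and the 2 controls of Galc lie at 42.9 and 5.95 CPM.

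By substrate, 4 of 10 genes of sphingolipid breakdown, 2 of 6 of glycosaminoglycan breakdown and 2 of 4 of glycoprotein sugar breakdown were upregulated with vehicle, and 4, 2 and 3 with atorvastatin. The shares of all genes tested were 19.8% and 24.9%. For heparan sulfate, Idua and Gusb were called while Ids, Sgsh and Naglu were not. For sphingolipids, Hexa, Gla, Asah1 and Psap were called while Glb1, Arsa, Galc, Neu1, Gm2a and Smpd1 were not. A difference between called and uncalled genes of a pathway was not tested, and Glb1, Galc, Naglu, Neu1 and Smpd1 are among those with controls over 2 times apart.

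The lowest SCI + Vehicle mouse was above both controls for 17 of 37 genes (45.9%), against 24.8% of all genes tested. The lowest SCI + Atorvastatin mouse was above both for 20 of 37 (54.1%), against 29.8%. Both counts include Aga and Cd68, which passed the filter only through the SCI groups, where they were high. The same filter applied to all genes. The spread between the controls was wide in this list as in the others: for 13 of 37 genes, and for 6370 of all 16091, the higher control was over 2 times the lower or the lower was 0. With Uninjured Control replicate 1 left out, the members' median log2 fold change was 0.83 with vehicle, beside 0.34 over all genes tested. With atorvastatin it was 0.90, beside 0.37. With replicate 2 left out the medians were 0.45 beside 0.31 with vehicle and 0.51 beside 0.33 with atorvastatin. In such fits the remaining control is assumed to vary like the SCI mice.

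Markers of several cell types moved with these results. The summed level of 12 microglia and macrophage markers, none of them a member, was 134 and 212 CPM in the controls, 1125 to 1568 CPM with vehicle and 1235 to 1877 CPM with atorvastatin. Of these markers, 9 were upregulated with vehicle and 10 with atorvastatin. In Uninjured Control replicates 1 and 2, 2 and 3 of the 12 were at 0 counts, against 0 in every SCI mouse. None of the 12 was at 0 in both controls. The summed level of 8 neuron markers was 8785 and 9762 CPM in the controls, 4890 to 7620 CPM with vehicle and 4654 to 5929 CPM with atorvastatin, and 6 of 8 were downregulated in each comparison. Sums of 6 astrocyte markers were 6456 and 7732 CPM in the controls, 11850 to 12936 CPM with vehicle and 12274 to 13700 CPM with atorvastatin. Sums of 7 oligodendrocyte markers overlapped between the groups (13901 and 18190, 14098 to 18336, and 13262 to 15250 CPM). Of 6 fibroblast markers, 0 were upregulated with vehicle and 5 with atorvastatin, with sums of 300.3 and 287.8 CPM in the controls. The part of these cell types, and of the liver RNA in the controls, in the lysosomal changes was not tested. In bulk tissue, more cells of a type and more RNA per cell cannot be told apart.

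Whether the levels of the members followed those of microglia and macrophages from mouse to mouse was examined among the 14 SCI mice alone, without the controls. For each gene, the log2(CPM + 1) level of each mouse minus its group mean was correlated with the mean of the 12 markers, treated likewise, with 100000 permutations within groups. No gene passed an adjusted permutation p of 0.05 among the 16079 tested (0.0% of them; 1766 had an unadjusted p below 0.05), and the smallest adjusted p was 0.148 among the members and 0.0625 overall. Pearson's r was positive for 30 of 37 members, with a median of 0.40, while over all genes 8013 were positive, 7906 negative and the median was 0.00. An r above 0.5 was found for 18 of 37 members and for 1327 of all 16079 genes. The points share the libraries and their depth.

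Manba had the highest r of the members (r = 0.84, permutation p = 0.00063, rho = 0.79, p = 0.00173), and with the 2 mice farthest from the median marker level left out r was 0.71. Npc2 (r = 0.78, rho = 0.80), Hexa (r = 0.78, rho = 0.85), Psap (r = 0.77, rho = 0.68), Cd63 (r = 0.74, rho = 0.77) and Cd68 (r = 0.72, rho = 0.79) followed. At the other end, Mcoln1 had r = -0.59 (permutation p = 0.0354, rho = -0.67, p = 0.0154) and Ids r = -0.41. Idua, which was called in both comparisons, had r = -0.24. The members' median r was 0.57 within the SCI + Atorvastatin group, 0.44 within the SCI + Vehicle group, 0.34 without the 2 farthest mice and 0.43 on log2(TPM + 1).

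**Figure D4:**
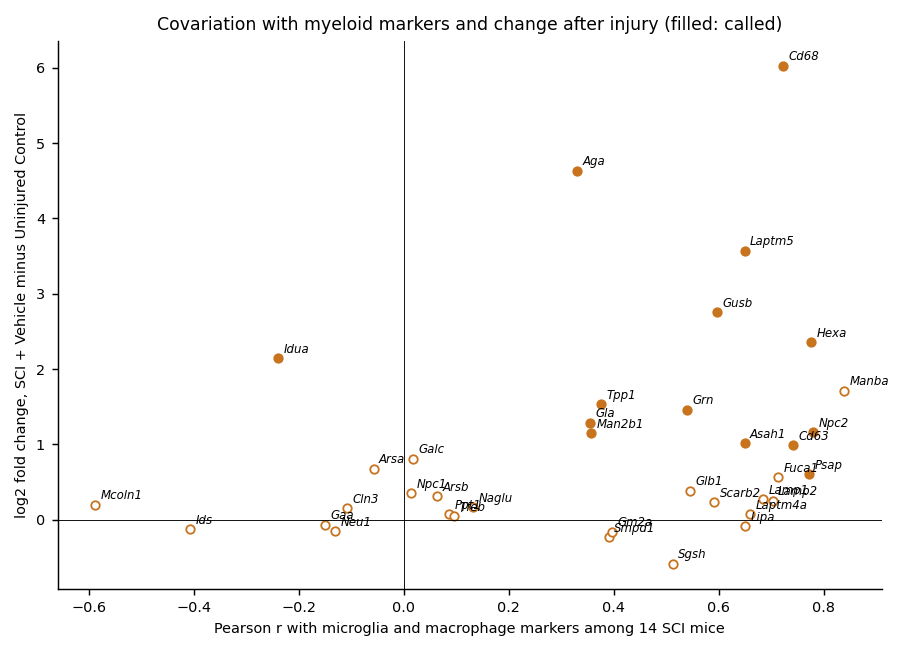
Each point is 1 of the 37 genes, with Pearson's r against the microglia and macrophage markers among the 14 SCI mice on the x axis and the SCI + Vehicle vs. Uninjured Control log2 fold change on the y axis (filled: DEG). Among the 14 filled points all but Idua lie at a positive r, and Ids and Mcoln1 are the leftmost points, close to 0 on the y axis.

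CACGTG elements were then searched in the promoter windows of the members, 250 bases before to 50 bases after the start in RefSeq (GRCm38.p6). Windows were found for 34 of 37 genes, and Aga, Asah1 and Npc1 had no entry. The core CACGTG, a palindrome and so the same on both strands, was in 9 of 34 members (26.5%: Gla, Glb1, Gaa, Naglu, Arsa, Sgsh, Lamp1, Cln3 and Mcoln1) and in 8.09% of 27025 genes. The longer TCACGTGA, which contains the core, was in 3 of 34 (8.82%: Gla, Cln3 and Mcoln1) against 1.12%, and TCACGTGA with G before it and C after it in 1 (Cln3) against 0.370%. The upstream stretches of 4 members are shown because they hold several copies each and differ in response: Gla was upregulated in both comparisons, Lamp1 in 1 of them, and Cln3 and Mcoln1 in neither. The Cln3 stretch lies before a start inside the gene, as RefSeq places Cln3 at chr7:126571207-126585817. Capitals mark the matches and lower case the 15 bases or fewer on either side and between them.
Gla (chrX:134601178-134601248, minus strand, bases -243 to -173): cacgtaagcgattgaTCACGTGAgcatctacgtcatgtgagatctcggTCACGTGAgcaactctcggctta
Lamp1 (chr8:13159085-13159160, plus strand, bases -76 to -1): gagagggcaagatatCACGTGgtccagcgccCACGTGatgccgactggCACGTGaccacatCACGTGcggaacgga
Cln3 (chr7:126583335-126583400, minus strand, bases -164 to -99): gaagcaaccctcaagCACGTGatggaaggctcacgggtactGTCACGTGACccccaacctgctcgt
Mcoln1 (chr8:3500433-3500495, plus strand, bases -86 to -24): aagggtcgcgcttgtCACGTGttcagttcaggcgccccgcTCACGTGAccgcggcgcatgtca

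Calls were counted separately for members with and without the core. Of the 9 that hold CACGTG, 1 was upregulated with vehicle (Gla) and 2 with atorvastatin (Gla and Lamp1), and their median log2 fold changes were 0.20 and 0.21. Of the 25 without it, 11 were upregulated with vehicle and 13 with atorvastatin, with medians of 0.61 and 0.76. Among all tested genes with a window, 18.1% of the 1322 that hold the core and 19.9% of the 10721 that do not were upregulated with vehicle, and 23.1% and 24.9% with atorvastatin. These are descriptions of letters in a window, and the split of the members was not tested. Laptm5 (chr4:130912890-130936148), Hexa (chr9:59539540-59565109), Grn (chr11:102430507-102436809), Tpp1 (chr7:105744811-105752282) and Cd68 (chr11:69664213-69666170), each upregulated in both comparisons, are among the members without the core, and Aga has no window.

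The direct comparison of SCI + Atorvastatin with SCI + Vehicle asked whether the drug changed these genes in injured cord. None of the 37 genes was called by edgeR, DESeq2 or limma, nor was any of the 16091 genes (0%). At an unadjusted p below 0.05 edgeR found 2 of 37 members, against 7.03% of all genes, DESeq2 3 and limma on log2(TPM + 1) 4. With single mice left out the edgeR number was 0 to 7, with 0 without SCI + Vehicle replicate 7, 7 without SCI + Vehicle replicate 1 or SCI + Atorvastatin replicate 1, 5 without SCI + Vehicle replicate 2, 4 without SCI + Atorvastatin replicate 6, and 1 without SCI + Atorvastatin replicate 3 or 5 or SCI + Vehicle replicate 3, 4 or 5. The share of all genes at that limit was counted only in the edgeR fit of all mice. Member numbers of the other fits thus have no background to be set against. The 2 genes with all mice were Cd63, at 123 to 201 CPM (median 179) with vehicle and 161 to 225 CPM (median 206) with atorvastatin, and Hexa, at 74.8 to 127 CPM (median 106) and 97.5 to 172 CPM (median 122). The ranges of both overlapped between the treatments. The difference was 0.24 for Cd63 on the log2 scale (95% interval 0.03 to 0.45, edgeR adjusted p = 0.692) and 0.27 for Hexa (0.02 to 0.52, edgeR adjusted p = 0.693). Galc followed at 0.21 (95% interval -0.01 to 0.43, edgeR adjusted p = 0.723).

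Of the 37 genes, 29 were higher and 8 lower with atorvastatin, with a median log2 fold change of 0.09, while 7830 of all 16091 genes were higher and 8101 lower, with a median near 0 (-0.0014). With each SCI mouse left out in turn the members' median stayed between 0.06 and 0.11. The intervals of all 37 genes lay within 1 log2 unit of 0 and those of 33 within 0.5, from -0.47 at the lowest (Cln3) to 0.67 at the highest (Lipa). The 4 genes that edgeR called against uninjured cord with atorvastatin alone had treatment differences of 0.18 (Fuca1, 95% interval -0.02 to 0.37), 0.13 (Lamp1, -0.01 to 0.26), 0.10 (Npc1, -0.05 to 0.25) and 0.11 (Scarb2, -0.07 to 0.29). A difference between the treatments was thus not shown for any of them. Of the microglia and macrophage markers 11 of 12 were also higher with atorvastatin, and the sum of 6 fibroblast markers was 171 to 1191 CPM (median 671) with vehicle and 737 to 1978 CPM (median 1180) with atorvastatin. The part of these cells in the small shift of the members was not tested.

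**Figure D5:**
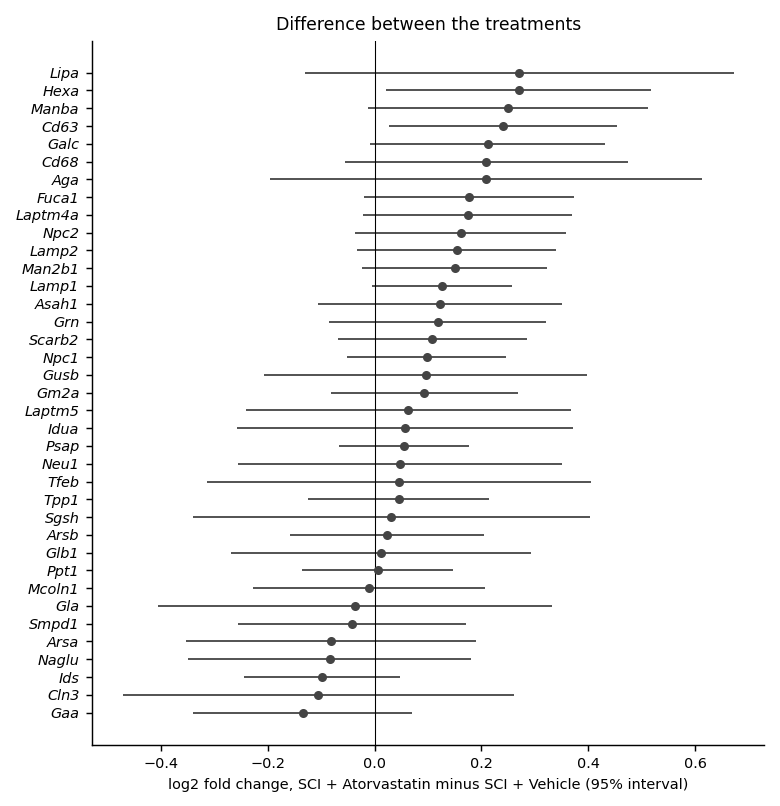
log2 fold change of SCI + Atorvastatin minus SCI + Vehicle (x axis) with its 95% interval from edgeR for each of the 37 genes, ordered by size. Of the points, 29 lie above 0 and 8 below, and only the intervals of Hexa and Cd63 leave out 0.

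Other lysosomal genes, 83 in the files, give the setting of these changes. Of all genes tested, 19.8% were upregulated with vehicle and 24.9% with atorvastatin, and 9.55% and 14% were downregulated. The lists below were not tested against these shares. Of 13 cathepsins, the lysosomal proteases, 9 were upregulated with vehicle and 10 with atorvastatin. The smallest p-values were those of Ctss at 3.41 (SE 0.19, edgeR adjusted p = 1.64e-05) and 3.60 (SE 0.18, adjusted p = 3.1e-06) and of Ctsd at 2.87 (SE 0.17) and 3.12 (SE 0.18). Of 36 further hydrolases and membrane proteins, 14 and 17 were upregulated and 0 and 2 downregulated. The 19 subunits of the V-ATPase, which acidifies the lumen, had 2 upregulated in each comparison, of which Atp6v0d2 had 0 counts in both controls, and 5 and 7 downregulated, among them Atp6v1e1 at -0.72 (SE 0.15) and -0.82 (SE 0.10) and Atp6v0e2 at -0.76 (SE 0.17) and -0.91 (SE 0.14). Of 6 genes that deliver enzymes to the lysosome, 1 and 2 were upregulated, and Igf2r, a mannose 6-phosphate receptor, changed by 1.15 (SE 0.16) and 1.46 (SE 0.11). Of 9 relatives and regulators of Tfeb, 1 was upregulated with vehicle and 2 with atorvastatin, and Zkscan3, a zinc finger protein described as a repressor of autophagy genes, changed by 1.31 (SE 0.35) and 1.498 (SE 0.37).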

How the data were processed

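Spinal cord RNA of 16 mice was sequenced, and groups were taken from the sample labels. The authors checked and trimmed reads with FastQC 0.12.1 and Trimmomatic 0.38, aligned them to mm10 with STAR 2.5.4b and quantified them with RSEM 1.3.1. They deposited whole-number counts per gene, without normalization, and TPM, which the authors scaled for gene length and library. How the whole-number counts were made is not given in the sources used here.

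A gene was tested where its mean TPM exceeded 1 in any group (16091 genes). The test was the quasi-likelihood test of edgeR 4.0.16 in R 4.3.3 (TMM scaling, 1 fit per pair of groups, Benjamini-Hochberg adjustment over all genes tested, limit 0.05 and a change above 25%). Alternatives used DESeq2 1.42.0, limma 3.58.1, other scalings and filters, the replicate number as a block, and each mouse left out. Markers were correlated in Python 3.11.15, and promoters and positions are from RefSeq (GRCm38.p6). The members and lists were chosen with earlier results of these data known. Full values were set to be given for members with the smallest or largest p in a comparison, the highest TPM, a control at 0 counts or a downward call, and for up to 2 genes per direction of each other list. The E-box windows printed were chosen after their letters were seen.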

Additional observations from a re-analysis of the deposited data

Results flagged for a closer look

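In each group of 7, the highest or lowest mouse was compared with the other 6 by its gap (Dixon's ratio, 95% level) for the 37 genes, in TMM-scaled CPM. In 6 of 74 such tests a mouse stood apart, where chance gives 5%. SCI + Atorvastatin replicate 3 was high in 3 genes: Gusb at 86.6 CPM (the others 45.9 to 58.7), Psap at 1470 CPM (the others 1224 to 1329) and Grn at 314 CPM (the others 189 to 242). The same mouse had the highest summed microglia and macrophage markers (1877 CPM). SCI + Atorvastatin replicate 4 was low in Arsa, at 15.9 CPM (the others 25.1 to 29.1), and high in Arsb, at 135 CPM (the others 90.7 to 109). SCI + Vehicle replicate 1 was low in Neu1, at 16.95 CPM (the others 35.1 to 44.8). Grn, Gusb and Psap kept their calls against uninjured cord without replicate 3.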

How the results depend on the processing

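The members called were 14 with vehicle and 18 with atorvastatin, and 12 to 20 and 15 to 26 under the other tools, scalings and filters. Those other fits called 19.1 to 40.9% and 29.5 to 45.3% of all genes, in either direction. The exceptions were voom with group weights (0 and 0) and the replicate number as a block (0 and 0, with 12 and 11 genes at an unadjusted p below 0.05, and fold changes with vehicle such as 2.58 for Hexa, 3.51 for Laptm5 and 1.71 for Tpp1). The block called 0.0994% and 0% of all genes, and its share of all genes at the unadjusted limit was not counted. Only replicate numbers 1 and 2 have a control, so the block fits against uninjured cord compare those mice alone. The other SCI mice do not inform these fold changes. With so few mice left, hardly any gene could be called. The numbers do not pair the mice: same-numbered SCI mice correlated between -0.19 and 0.11, and 0 of 7 pairs matched best with their own number. Between the treatments the block also gave 0. With single SCI mice left out the counts were 13 to 15 and 16 to 17, while 23.9 to 29.9% and 34.7 to 35.9% of all genes were called. Leaving out a control turned some uncalled genes into called ones of the other sign: without replicate 1, Smpd1 was at 0.64 with vehicle and 0.62 with atorvastatin, Neu1 at 0.90 and Naglu at -0.58 with atorvastatin, and without replicate 2 Glb1 was at -0.59 with atorvastatin. Without 1 mouse each, the ranges were -0.78 to 0.64 for Smpd1 with vehicle, -0.80 to 0.62 for Smpd1, -0.67 to 0.90 for Neu1, -0.58 to 1.42 for Naglu and -0.59 to 11.9 for Glb1 with atorvastatin. The last is against a control at 0 and is no bound. Positive correlations numbered 26 to 30 of 37, the CACGTG count stayed at 9 before the start alone, and in TPM the separated genes numbered 18 and 22. Every comparison with uninjured cord rests on 2 controls that disagree in 13 of the 37 genes.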

Other observations

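The letters GAGGAAGT, a core bound by the myeloid factor PU.1, were searched in the promoter windows on both strands after the values had been seen. They were in 2 of 34 members (5.88%: Gla and Gusb, both upregulated in both comparisons) and in 3.69% of 27025 genes. The Gusb match lies after the start. In the 250 bases before the start alone they were in 1 of 34 members (2.94%: Gla) and in 2.79% of genes. The windows of Laptm5 and Cd68 held neither these letters nor CACGTG. Among all tested genes with a window, 28.1% of the 423 that hold GAGGAAGT and 19.4% of the 11620 that do not were upregulated with vehicle, and 33.6% and 24.4% with atorvastatin.

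Counts and TPM of the control mice did not always go together. Cd68 had 72 counts in Uninjured Control replicate 2 and a TPM of 0, Aga had 14 counts in replicate 1 and a TPM of 0, and Lamp2 was at 130 and 88.2 TMM-scaled CPM beside 132 and 59.3 TPM.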
